A study of Mus musculus with 8 samples.

Results

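Cell junction, keratin and duct marker genes were described in mouse liver tumours that arose under a human c-MYC transgene, and in normal mouse livers. The group holds 10 genes, chosen by name for their function, of 19937 genes measured: the cadherins Cdh1 and Cdh2, the claudins Cldn1 and Cldn2, the connexin Gjb1, the keratins Krt8, Krt18 and Krt19, and Epcam and Sox9. Each gene was read from the probe set annotated to it alone, and each of the 10 had 1 such probe set. Total RNA of 4 tumours and of 4 control livers was hybridised to 8 Affymetrix arrays, each sample to its own, and the question was which genes differ between tumour and normal liver. The tumours came from mice whose human c-MYC transgene is driven in the liver by the CEBPB-LAP promoter under doxycycline control, and they were collected at the humane endpoint. The controls were normal livers of matched mice. The labels carry the same transgene wording on all 8 samples and do not say whether the control mice bore the transgene or received doxycycline. Strain and age are not given in the sources used here, and the labels do not say that each sample came from a different mouse, so the p-values speak only of the spread among these 8 arrays, which may be technical.

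Hepatocytes and bile duct cells are the epithelial cells of the liver. They hold together through adherens junctions, in which cadherins bind the cadherins of the next cell, through tight junctions, in which claudins seal or open the path between cells and keep bile apart from blood, through desmosomes, and through gap junctions, whose connexin channels join the cytoplasm of neighbours. Hepatocytes carry simple keratin filaments made of Krt8 paired with Krt18, while Krt19, Epcam and Sox9 mark bile duct and progenitor cells in normal adult liver.

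The tumours differed from control livers gene by gene and not as 1 group. Cdh1 and Epcam were higher, Cldn2, Gjb1, Cldn1 and Sox9 were lower, and Cdh2, Krt8, Krt18 and Krt19 did not pass the test. A gene was called when its p-value from limma, adjusted over all 19937 genes by Benjamini and Hochberg, was under 0.05. By this rule 6 of the 10 genes were called, where 28.9% of all genes were. Of these, 2 of the 10 genes were higher, where 16.2% of all genes were, and 4 were lower, where 12.7% of all genes were. The groups did not overlap for 6 of the 10 genes, against 30.2% of all genes. For 2 genes every tumour exceeded every control, against 16.3% of all genes, and for 4 every tumour fell short of every control, against 13.9%. The median log2 change of the 10 genes was -0.24, and that of all genes was -0.04. The 10 genes were chosen with earlier results of these data known, so these shares are no test of the group. Values are log2 probe set values, so 1 unit is a 2-fold difference, and changes are tumours minus controls.

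**Figure D1:**
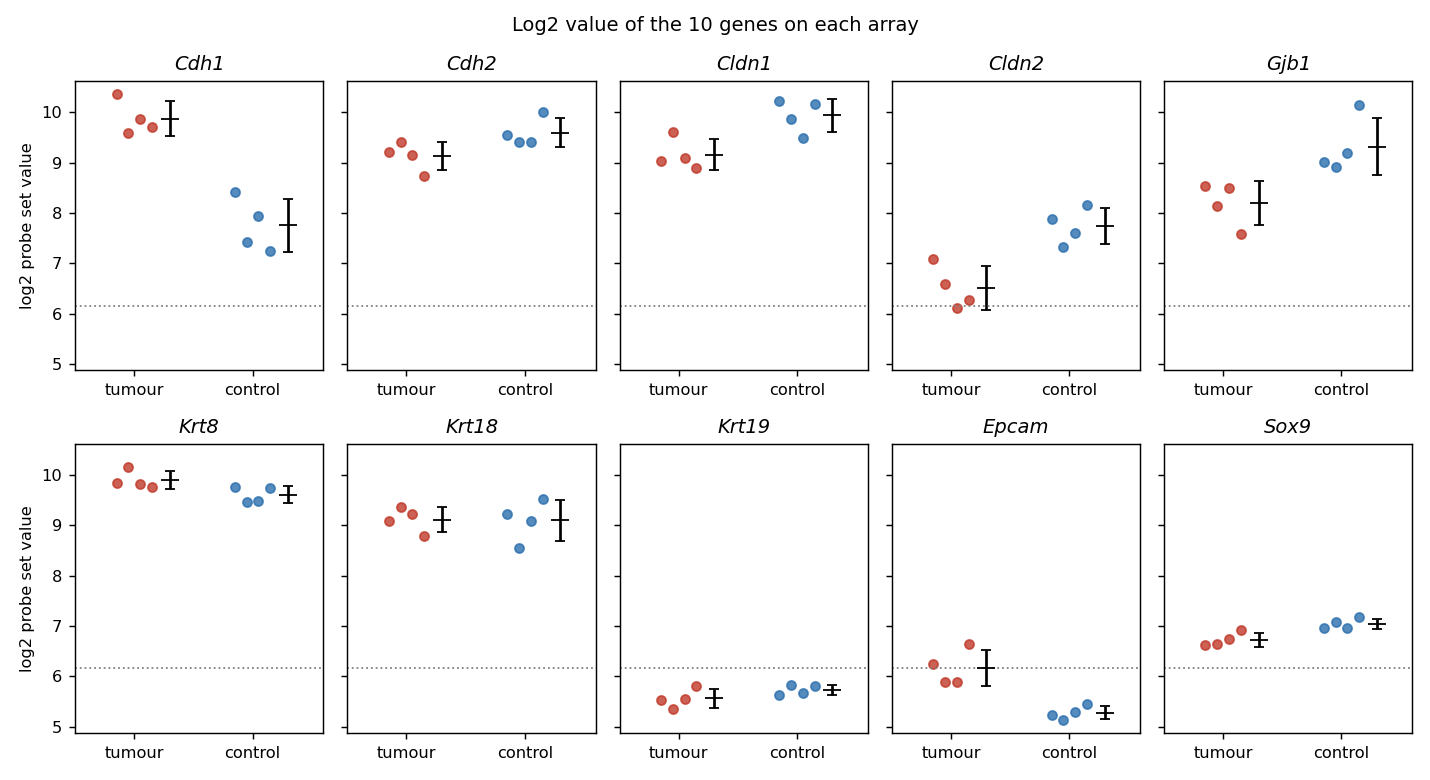
Log2 probe set value of each of the 10 genes on each array, with tumours left of controls; points are arrays, the black bars give mean ± SD of 4 arrays, and the dotted line marks the log2 value of 6.16 at or below which a gene was called low. All 4 tumours lie above all controls for Cdh1 and Epcam, and below them for Cdh2, Cldn2, Gjb1 and Sox9.

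Arrays of this kind give no detection call, so a level was called low where it did not exceed 6.16, the 95th percentile of the mean values of 1194 olfactory and vomeronasal receptor genes, which serve the sense of smell. The mouse Myc probe set read 7.04 ± 0.22 in tumours and 6.82 ± 0.66 in controls (SD, n = 4 each), a change of 0.21 (SE 0.28, adjusted p = 0.635), and whether it detects the human transgene was not tested. That change was -0.021 without control liver 4. Control liver 3 stood apart: its value for Xist, the RNA of the inactive X chromosome, was 11.89, against 4.86 to 7.12 in tumours and 5.78 to 6.74 in the other controls, and the Y-linked Eif2s3y was 3.46, against 8.56 to 8.998 in tumours and 9.12 to 9.37 in the other controls. Sex is not among the labels. Without control liver 3, 2 of the 10 genes were higher and 3 lower: the Sox9 change was -0.34 in that fit (adjusted p = 0.0552), against -0.32 with all arrays. The X-linked Cldn2 and Gjb1 then changed by -1.28 (adjusted p = 0.00409) and -1.16 (adjusted p = 0.0220). The 9 hepatocyte markers examined were above low levels in both groups, with a list mean of 10.51 to 11.01 in tumours and of 11.58 to 12.004 in controls. All 9 were called lower in tumours, against 12.7% of all genes. Their log2 changes ran from -2.78 for Asgr1 to -0.33 for Ttr. In bulk RNA, fewer cells of a type and less RNA per cell cannot be told apart.

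Cdh1, which encodes E-cadherin, the main adherens junction cadherin of epithelia and in mouse liver a protein concentrated around the portal tracts, showed the largest change of the 10 genes. It read 10.36, 9.58, 9.85 and 9.70 in tumours 1 to 4, against 8.41, 7.42, 7.93 and 7.24 in control livers 1 to 4. Every tumour was above every control, and the lowest tumour exceeded the highest control by more than a log2 unit. Cdh1 averaged 9.87 ± 0.34 in tumours and 7.75 ± 0.53 in controls (SD, n = 4 each), 4.35-fold higher in tumours (log2 change 2.12, SE 0.25, adjusted p = 0.000107). Only 211 of the 19937 genes, or 1.06%, rose as much or more. Leaving out any 1 array gave changes between 1.95 and 2.34.

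Cdh2, which encodes N-cadherin, the other cadherin that adult hepatocytes use, read 9.20, 9.41, 9.16 and 8.74 in tumours, against 9.54, 9.41, 9.41 and 10.01 in controls. All tumours were below all controls, but tumour 2 lay next to control liver 3. The change was -0.47 (SE 0.17, 95% interval -0.85 to -0.09) and did not pass (adjusted p = 0.0674), although it passed without tumour 2 (-0.56, adjusted p = 0.0454) and with quantile normalisation (-0.54, adjusted p = 0.0232). The difference between Cdh1 and Cdh2 was formed within each array, where its zero has no meaning because 2 probe sets are not on 1 scale, and only its shift between groups was compared. It was 1.15, 0.18, 0.70 and 0.96 in tumours, against -1.14, -1.99, -1.47 and -2.76 in controls. The groups did not overlap, and the shift was 2.59 (two-sided exact permutation p = 0.0286, the smallest that 4 against 4 allows; adjusted p = 0.114 over the 4 gene pairs compared). With this number of arrays 1 pair alone at the smallest p cannot pass after adjustment.

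The proteins that tie cadherins to the cell's actin, and the related nectin adhesion molecules, gave 1 higher and 3 lower genes of 8 measured. Their median log2 change was -0.08. For this list and those below, the shares over all genes were 16.2% called higher and 12.7% called lower. Nectin3, an adhesion molecule of the immunoglobulin family, averaged 8.02 ± 0.18 in tumours and 9.15 ± 0.19 in controls (SD, n = 4 each; log2 change -1.13, SE 0.13, adjusted p = 7.13e-05). Nectin1, of the same family, changed by -0.53 (SE 0.14, adjusted p = 0.0170). The calls for Ctnna1, alpha-catenin (0.37, SE 0.12, adjusted p = 0.0433), and Vcl, vinculin (-0.39, SE 0.13, adjusted p = 0.0413), were each lost in 6 of 8 fits with 1 array left out: Ctnna1 kept its call without tumour 4 or control liver 4, and Vcl without tumour 1 or control liver 3. Both were also lost with array medians subtracted (adjusted p = 0.0633 and 0.0722) and with a trended robust variance (0.0596 and 0.0518). With the replicate number as a block neither call held (adjusted p = 0.105 and 0.0913). Of 8 other cadherins measured, those of desmosomes aside, 4 had low means in both groups. None of the 8 was called by limma, and 0 had an unadjusted p under 0.05. Their log2 changes lay between -0.16 and 0.22, with a median of -0.03. The largest of these was for Cdh13, an atypical cadherin without a transmembrane part (0.22, SE 0.12, adjusted p = 0.232).

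**Figure D2:**
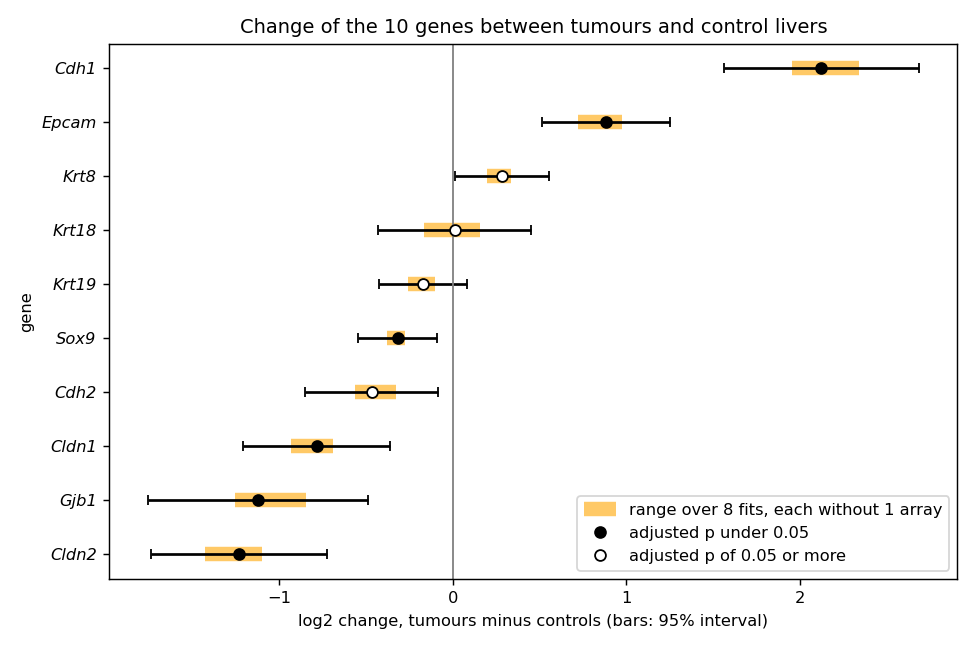
Log2 change (tumours minus controls) of the 10 genes from limma, with 95% intervals as black bars and the range over the 8 fits with 1 array left out as orange bands; filled points passed an adjusted p of 0.05. Cdh1 stands at 2.12 and Epcam at 0.88 on the higher side, and Cldn2 at -1.23 lies lowest.

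Both claudins were lower in tumours. Cldn2, which forms a channel for small cations and water, read 7.09, 6.58, 6.11 and 6.28 in tumours, against 7.89, 7.33, 7.61 and 8.16 in controls. No tumour reached the lowest control, and tumour 3 was at a low level. Cldn2 was 2.35-fold lower in tumours (6.52 ± 0.43 in tumours and 7.75 ± 0.36 in controls, SD, n = 4 each; log2 change -1.23, SE 0.23, adjusted p = 0.00204). Cldn1, a barrier-forming claudin present in hepatocytes and bile duct cells, read 9.04, 9.60, 9.08 and 8.89 in tumours, against 10.22, 9.86, 9.50 and 10.16 in controls. The groups touched, since tumour 2 was above control liver 3, and the change was -0.78 (SE 0.19, adjusted p = 0.0103), 1.72-fold lower in tumours. The within-array difference between Cldn1 and Cldn2 shifted by 0.45, less than the spread allows to tell apart (two-sided exact permutation p = 0.143, adjusted p = 0.171).

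The DNA just upstream of the claudin genes is shown because the claudins were the members of 1 family that were lower together. The windows are RefSeq sequence of build GRCm38.p6, from 250 bases before to 50 after the annotated start, 5′ to 3′ on the gene's strand. They lie at chr16:26371790-26372089 (minus strand) for Cldn1 and chrX:139800558-139800857 (plus strand) for Cldn2, and capitals mark a TATA box motif, TATAAA or its reverse complement TTTATA.
Cldn1: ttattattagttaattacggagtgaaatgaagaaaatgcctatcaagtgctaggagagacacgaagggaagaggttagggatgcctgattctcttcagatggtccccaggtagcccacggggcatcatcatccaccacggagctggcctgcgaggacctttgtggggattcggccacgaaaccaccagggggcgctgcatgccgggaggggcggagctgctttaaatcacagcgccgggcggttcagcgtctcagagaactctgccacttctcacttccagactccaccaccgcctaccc
Cldn2: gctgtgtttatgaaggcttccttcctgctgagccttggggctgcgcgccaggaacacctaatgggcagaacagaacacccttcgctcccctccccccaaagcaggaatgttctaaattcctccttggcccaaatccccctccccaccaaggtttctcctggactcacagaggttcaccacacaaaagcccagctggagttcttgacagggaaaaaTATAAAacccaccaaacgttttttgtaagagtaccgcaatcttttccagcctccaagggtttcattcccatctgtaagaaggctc
The Cldn2 window holds TATAAA starting 35 bases before the start, and the letters are not in the Cldn1 window. Of all 32851 promoter windows of this length, 13.62% hold the motif on either strand.

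Of 11 other claudins measured, 4 had low means in both groups. Among the 11, 1 was higher and none lower by limma (2 lower at an unadjusted p under 0.05), with a median of -0.02. Cldn6, an embryonic claudin, averaged 7.24 ± 0.30 in tumours and 6.35 ± 0.28 in controls (SD, n = 4 each; log2 change 0.89, SE 0.18, adjusted p = 0.00316), with 2 controls at low levels. Without tumour 1, tumour 2 or control liver 2, and with quantile normalisation, array weights or the dimmest genes left out, 1 claudin of this list was lower. The other 17 tight junction proteins measured split, with 6 higher and 4 lower and a median of 0.02. With quantile normalisation 4 were higher and 7 lower. The higher genes were led by Prkci, the atypical protein kinase C of the cell polarity complex, at 10.22 ± 0.12 in tumours and 8.92 ± 0.20 in controls (SD, n = 4 each; log2 change 1.30, SE 0.12). Marveld2, tricellulin, which sits where 3 cells meet, changed by 0.86 (SE 0.13, adjusted p = 0.00056), and Ocln, occludin, by 0.67 (SE 0.18, adjusted p = 0.0167). The lower genes were led by Cgnl1, paracingulin, at 7.14 ± 0.20 in tumours and 8.88 ± 0.20 in controls (SD, n = 4 each; log2 change -1.74, SE 0.13), and by Mpdz, a scaffold with many PDZ domains (-1.13, SE 0.16). F11r, junctional adhesion molecule A, changed by -0.67 (SE 0.22, adjusted p = 0.0409). Its call held without tumour 1 or control liver 3 and was lost in the 6 other fits with 1 array left out. It was also lost with array medians subtracted (adjusted p = 0.0685) and with the replicate number as a block (adjusted p = 0.0567). The Ocln call was lost without tumour 3 (adjusted p = 0.0510) or control liver 2 (0.0512). The count of higher tight junction genes was 3 without tumour 1, tumour 4 or control liver 4 and 2 without control liver 2.

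**Figure D3:**
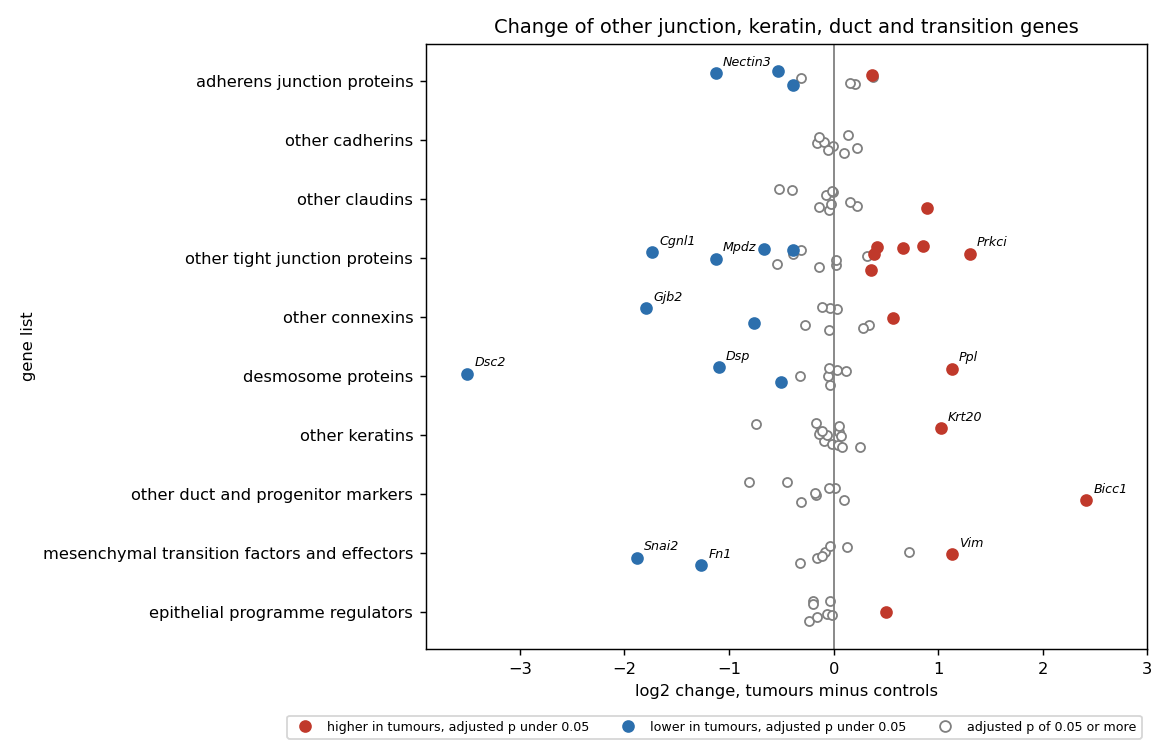
Log2 change (tumours minus controls) of each measured gene in 10 related lists, 1 row per list; red points were called higher, blue points lower, and open points did not pass, with names at called changes of at least 1 log2 unit in size. Dsc2 at -3.50 and Bicc1 at 2.42 lie farthest from 0.

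Gjb1, connexin 32, the main gap junction protein of hepatocytes, read 8.54, 8.15, 8.50 and 7.59 in tumours, against 9.01, 8.92, 9.19 and 10.14 in controls. All tumours were below all controls, and control liver 4 was nearly a log2 unit above the other controls. Gjb1 averaged 8.19 ± 0.44 in tumours and 9.31 ± 0.56 in controls (SD, n = 4 each), 2.17-fold lower in tumours (log2 change -1.12, SE 0.28, adjusted p = 0.0128). Without control liver 4 the change was -0.85 and the call held (adjusted p = 0.0166). Gjb2, connexin 26, which shares hepatocyte gap junctions with connexin 32, lay between 8.84 and 9.20 in tumours, against 10.32 to 11.09 in controls. It changed by -1.80 (SE 0.16, adjusted p = 1.43e-05). The difference between Gjb1 and Gjb2 shifted by 0.67 between groups, which the spread between arrays did not resolve (two-sided exact permutation p = 0.114, adjusted p = 0.171). Of 10 other connexins measured, Gjb2 included, 5 had low means in both groups. Among the 10, 1 was higher and 2 lower, with a median of -0.04. Besides Gjb2, Gjc3 changed by -0.76 (SE 0.12, adjusted p = 0.000747), with all 4 tumours and 1 control at low levels, and Gjc1, connexin 45, by 0.57 (SE 0.12, adjusted p = 0.00495), with all 8 arrays at low levels. With array medians subtracted, with quantile normalisation, and without tumour 2 or control liver 1, 2 connexins were higher.

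Desmosomes, the junctions that anchor keratin filaments, had 1 higher and 3 lower genes of 10 measured and a median of -0.05. Dsc2, desmocollin 2, a desmosomal cadherin, read 5.45, 5.72, 5.64 and 5.74 in tumours, against 9.37, 8.69, 9.56 and 8.96 in controls. The 4 tumours were all at low levels, and the change was -3.50 (SE 0.18, adjusted p = 3.04e-07). Its partner Dsg2, desmoglein 2, changed by -0.50 (SE 0.15, adjusted p = 0.0289). This call was lost without tumour 1, tumour 3, control liver 2 or control liver 3 (adjusted p between 0.0705 and 0.0864). With the replicate number as a block it was also lost (adjusted p = 0.0613). Dsp, desmoplakin, which links desmosomes to keratin, changed by -1.10 (SE 0.30, adjusted p = 0.0201), lost without tumour 3 (0.0603) or control liver 4 (0.0535). Ppl, periplakin, another linker of this kind, was higher (log2 change 1.13, SE 0.13, adjusted p = 7.31e-05). Without tumour 3, 1 desmosome gene was lower.

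The keratins did not pass. Krt8 read 9.84, 10.15, 9.82 and 9.76 in tumours, against 9.76, 9.46, 9.48 and 9.73 in controls. Only tumour 4 was below the highest control, and the change was 0.28 (SE 0.12, 95% interval 0.02 to 0.55, adjusted p = 0.113). Krt18, the filament partner of Krt8, read 9.07, 9.37, 9.21 and 8.78 in tumours, against 9.22, 8.56, 9.09 and 9.53 in controls. The groups were mixed, the change was 0.012 (SE 0.20, 95% interval -0.43 to 0.45, adjusted p = 0.975), and its sign turned without tumour 2, tumour 3 or control liver 2 and with quantile normalisation (-0.052). The difference between Krt8 and Krt18 within an array shifted by 0.27 (two-sided exact permutation p = 0.171, adjusted p = 0.171). Krt19, the duct keratin, was low on all 8 arrays, with 5.36 to 5.82 in tumours and 5.63 to 5.82 in controls, and a change of -0.17 (SE 0.11, 95% interval -0.42 to 0.08, adjusted p = 0.323). Of 15 other keratins measured, 9 had low means in both groups, 1 was higher and none lower by limma (1 lower at an unadjusted p under 0.05), with a median of -0.01. Without control liver 1, 1 was lower. Krt20, known from intestinal epithelium, read 6.42, 6.63, 5.74 and 6.35 in tumours, against 5.13, 5.41, 5.16 and 5.36 in controls (log2 change 1.02, SE 0.17, adjusted p = 0.00118). All 4 controls and tumour 3 were at low levels.

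**Figure D4:**
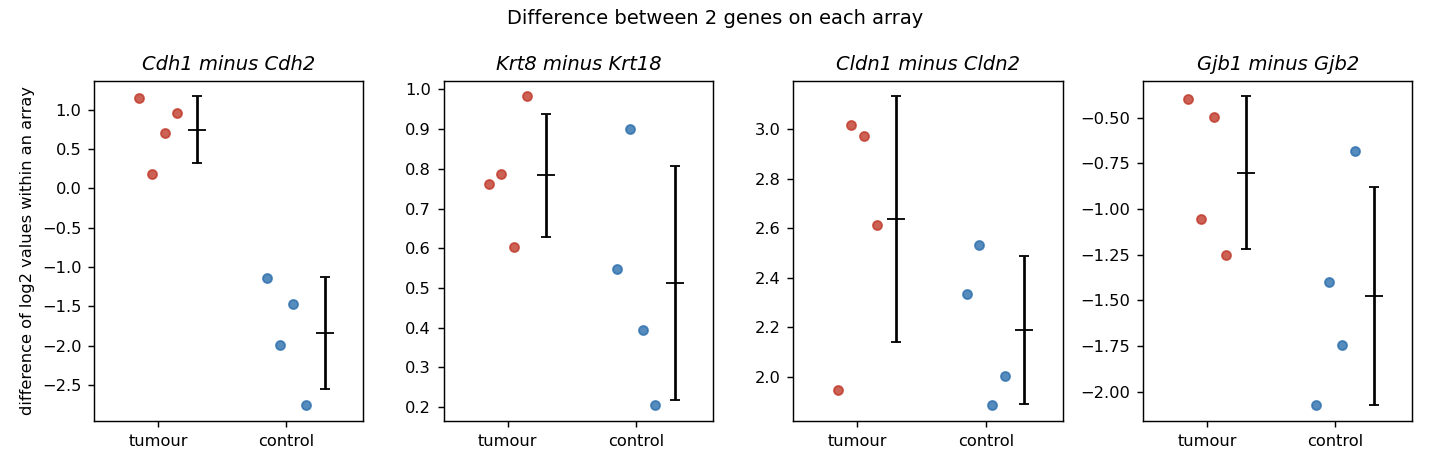
Difference between the log2 values of 2 genes within each array, for the 4 gene pairs compared, with tumours left of controls and a separate axis for each panel; points are arrays and black bars give mean ± SD of 4 arrays. The groups are apart for Cdh1 minus Cdh2, with a shift of 2.59, and overlap for the other 3 pairs.

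Epcam, an adhesion molecule of bile duct and progenitor cells, read 6.24, 5.88, 5.88 and 6.63 in tumours, against 5.23, 5.14, 5.29 and 5.45 in controls. All tumours were above all controls, yet all 4 controls and 2 tumours were at low levels, as were both group means (6.16 ± 0.36 in tumours and 5.28 ± 0.13 in controls, SD, n = 4 each). The change was 0.88 (SE 0.17, adjusted p = 0.00222), and none of the 1194 receptor genes rose as much. The Epcam promoter window is shown for its E-box motifs, the 6-base sites of basic helix-loop-helix and zinc finger factors. It lies at chr17:87635729-87636028 (plus strand, GRCm38.p6, RefSeq), and capitals mark CACCTG, its reverse complement CAGGTG, and CACGTG.
Epcam: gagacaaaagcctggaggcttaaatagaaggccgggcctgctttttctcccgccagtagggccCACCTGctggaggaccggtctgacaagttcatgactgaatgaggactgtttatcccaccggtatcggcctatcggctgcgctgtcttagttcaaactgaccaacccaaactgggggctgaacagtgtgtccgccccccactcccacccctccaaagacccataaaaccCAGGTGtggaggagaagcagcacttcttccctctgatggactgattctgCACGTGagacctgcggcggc
CACCTG or its reverse complement starts 187 and 19 bases before the start, and CACGTG, the E-box form that MYC with MAX is known to bind, begins on base 31 after it. Of all windows 20.2% hold the first motif on either strand and 7.15% the second. RefSeq windows were matched for 6 of the 10 genes, with 9 windows in all, 4 of them of Gjb1. Of these 9 windows, 4 held CACCTG or its reverse complement (Krt8, Krt18, Epcam and 1 of Gjb1), and 1 held CACGTG (Epcam). TATAAA or its reverse complement was in 3 (Krt8, Cldn2 and 1 of Gjb1). Binding of any factor at these motifs, and their part in the changes, was not tested.

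Sox9, a transcription factor of bile duct and progenitor cells, read 6.62, 6.64, 6.74 and 6.92 in tumours, against 6.97, 7.09, 6.96 and 7.17 in controls. The groups did not overlap but were close, and the change was -0.32 (SE 0.10, adjusted p = 0.0413). With 1 array left out the change stayed between -0.38 and -0.27, but its call was lost in 7 of 8 such fits (adjusted p between 0.0532 and 0.113) and held without tumour 4 (adjusted p = 0.0149). Of the 1194 receptor genes, 113 changed by as much or more in the same direction. Over all 1194, 64 were called lower and 2 higher, and the median log2 change was -0.11. Of 9 other duct and progenitor markers measured, 5 had low means in both groups. Among the 9, 1 was higher and none lower by limma (1 lower at an unadjusted p under 0.05), with a median of -0.17. Without tumour 2 or control liver 1, 1 was lower. Bicc1, an RNA-binding protein of duct and tubule epithelia, read 9.04, 9.01, 9.06 and 8.60 in tumours, against 6.44, 6.64, 6.47 and 6.49 in controls. Its change of 2.42 (SE 0.12, adjusted p = 2.51e-07) was the largest rise among the 106 genes measured in the 10 related lists. Of the 5 measured markers of the cholangiocyte list (Krt7, Prom1, Cftr, Sctr and Pkhd1), 2 had low means in both groups. None of the 5 was called by limma (1 had an unadjusted p under 0.05). List means were 5.51 to 5.68 in tumours and 5.68 to 6.32 in controls, the highest in control liver 3. The part of cholangiocytes in the Epcam and Sox9 values was not tested.

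Factors and effectors of the mesenchymal transition, by which epithelial cells lose junctions, gave 1 higher and 2 lower of 10 measured and a median of -0.10. Without control liver 4, 2 were higher. Snai2, or Slug, known as a repressor of the E-cadherin gene, read 6.78, 6.98, 6.64 and 6.76 in tumours, against 8.80, 8.24, 9.15 and 8.52 in controls. Its change of -1.88 (SE 0.18, adjusted p = 1.96e-05) was larger than the spread of either group. Fn1, fibronectin, a matrix protein that hepatocytes also secrete into plasma, changed by -1.27 (SE 0.28, adjusted p = 0.00615), and Vim, the mesenchymal filament protein vimentin, by 1.13 (SE 0.13, adjusted p = 9.46e-05). Of 8 regulators of the epithelial programme, 5 had low means in both groups. Among the 8, 1 was higher and none lower by limma (1 lower at an unadjusted p under 0.05), with a median of -0.11. Elf3, an ETS factor of epithelia, changed by 0.50 (SE 0.11, adjusted p = 0.00442), with all 4 controls and 2 tumours at low levels. Over all 10 related lists, 14 of 106 genes were higher and 14 lower, with a median of -0.05. Among all genes, 16.2% were higher and 12.7% lower, with a median of -0.04. The higher count of the related lists was 9 without control liver 2.

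**Figure D5:**
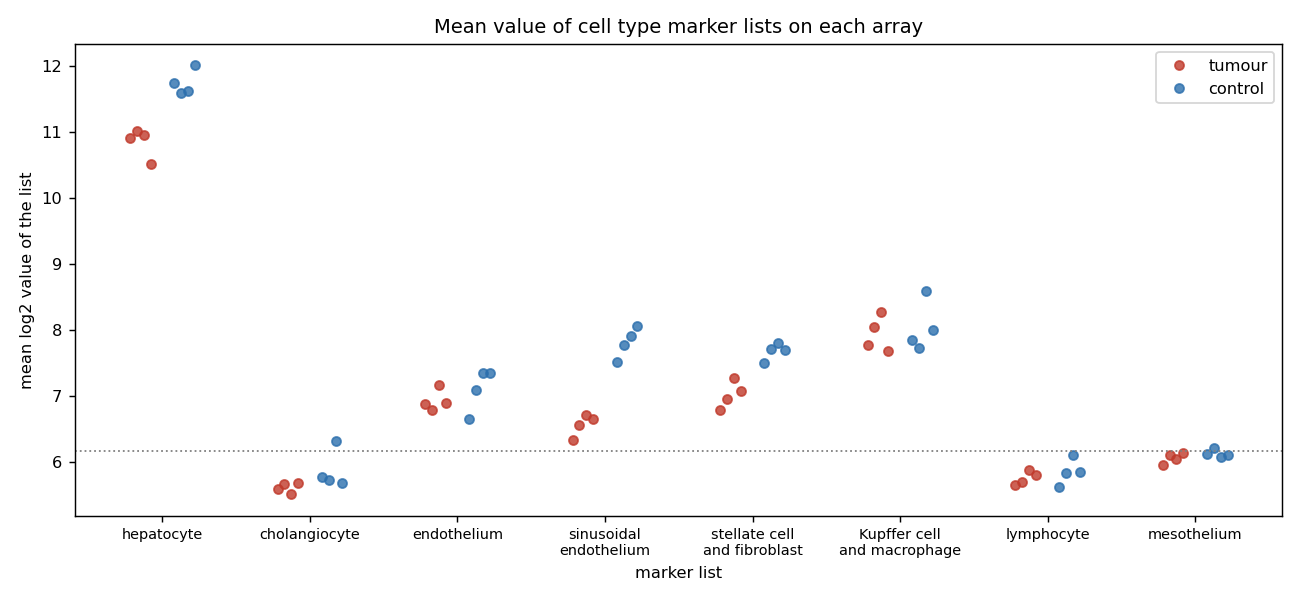
Mean log2 value of 8 cell type marker lists on each array, with tumours left of controls; points are arrays and the dotted line marks the value of 6.16 used for low levels. The hepatocyte, sinusoidal endothelium and stellate cell lists lie lower on all 4 tumours than on all 4 controls, and the groups overlap for the other 5 lists.

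Other cell types of the liver carry some of these genes, so their marker lists were measured on the same arrays. Sinusoidal endothelium had 3 of 5 markers lower and none higher, with list means of 6.33 to 6.71 in tumours and 7.51 to 8.06 in controls. Stellate cells and fibroblasts had 3 of 7 lower and none higher, with means of 6.79 to 7.28 in tumours and 7.496 to 7.80 in controls. Among Kupffer cell and macrophage markers 2 of 7 were higher and 2 lower (means of 7.67 to 8.27 in tumours and 7.72 to 8.59 in controls), and among general endothelial markers 1 of 8 was higher and 3 lower (6.78 to 7.16 in tumours and 6.65 to 7.35 in controls). No mesothelial or lymphocyte marker was called by limma, of 4 and 7 measured (0 and 0 at an unadjusted p under 0.05), and 2 and 5 of these had low means in both groups. List means of mesothelium were 5.96 to 6.14 in tumours and 6.07 to 6.21 in controls, and those of lymphocytes were 5.64 to 5.88 in tumours and 5.62 to 6.10 in controls. The part of these cell types in the changes of Snai2, Vim, Cdh1, Gjb1 and the claudins was not tested.

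Likeness of profiles over the 8 arrays was measured by Euclidean distance after centring each gene on its own mean. Nearest to Cdh1 were Plac8 and Haus1 (distances of 0.59 and 0.62 log2 units), and nearest to Epcam were Tube1 and Syne4 (0.30 and 0.39). Cldn2 had Hsd17b2 and Atrn (0.52 and 0.63), Cldn1 had Slc35d1 and Epha1 (0.36 and 0.40), and Gjb1 had Dhrs1 and Tmbim6 (0.41 and 0.46). Cdh2 lay nearest to Apoa1, the apolipoprotein gene of the hepatocyte list, and Smpd1 (0.21 and 0.27). Krt8 had Slc6a19 and Dram1 (0.23 and 0.24), and Krt18 had Pggt1b and Yipf3 (0.34 for each). The nearest profiles of Krt19 were Doxl1 and the olfactory receptor gene Olfr447 (0.11 for each), and those of Sox9 were the receptor pseudogene Olfr911-ps1 and 4930474M22Rik (0.13 and 0.14). Receptor genes were thus among the nearest profiles of Krt19 and Sox9. These distances also depend on how much a gene varies: from a flat profile Krt19 and Sox9 lay 0.44 and 0.54 away, and Cdh1 3.19.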

How the data were processed

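The file deposited by the authors gives log2 values for 34760 probe sets on 8 arrays. Per the submitters' processing notes these are RMA values (background correction, normalisation between arrays, summary per probe set) made in R 3.0.2. No source used here states the RMA settings or the genome build. Array medians lay between 6.33 and 6.44, and no further normalisation was applied in the main comparison. The number of arrays limits the precision.

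Of the probe sets, 21640 carried exactly 1 symbol in the platform annotation, 21553 of them were matched by gene identifier to RefSeq names, and the brightest per gene was kept, leaving 19937 genes. Groups were compared with limma 3.58.1 (lmFit and eBayes, group as the only term) in R 4.3.3, with Benjamini-Hochberg adjustment over all genes and a threshold of 0.05. SE and 95% intervals are from limma. Gene pairs were compared by an exact permutation test over 70 splits, adjusted over 4 pairs. Tables used Python 3.11.15 and pandas 2.3.3, and plots matplotlib 3.10.9. The fit was tested on simulated data. It recovered 17 of 50 changes of 0.5 log2 units and 44 of 50 of 1 unit, with 6 false among 165 calls. In the real data 5757 genes were called, so these shares may not hold there.

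The 10 genes and all lists were chosen with earlier results of these data known. Named genes were the 10, up to 3 called genes in each direction per related list (or the largest change where none was called), 2 nearest profiles per gene, Myc and the pair partners. Of 115 genes in the related lists, 106 were measured. Alternatives were quantile normalisation, median subtraction, leaving out the dimmest genes, a trended robust variance, array weights, averaging all probe sets of a gene, blocking on the replicate number, and leaving out each array.

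The labels number samples 1 to 4 in either group without stating a pairing.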

Additional observations from a re-analysis of the deposited data

Results flagged for a closer look

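In 82 groups of 4 arrays checked for 1 value far from the others, 3 were found, and chance alone gives about 1 in 20. Prom1 was 8.01 in control liver 3, against 4.96 to 5.34 in the other controls. Ctnna1 was 8.40 in tumour 4, against 8.74 to 8.80 in the other tumours. Bicc1 was 8.60 in tumour 4, against 9.01 to 9.06 in the other tumours.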

How the results depend on the processing

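The calls of Cdh1, Cldn1, Cldn2 and Gjb1 and their directions held under all 15 alternatives, and that of Epcam under the 14 in which it was tested. Leaving out the dimmest genes removed Epcam and Krt19 from the test, so 1 gene was higher. Quantile normalisation brought Cdh2 past the threshold (-0.54) and turned Krt18 to -0.052. With 1 array left out, Cdh2 ranged from -0.56 to -0.33, Krt18 from -0.17 to 0.16, with values of -0.074 and -0.023 where tumour 2 or tumour 3 was left out, and Sox9 from -0.38 to -0.27. Over the same fits 3 to 4 of the 10 genes were lower and 2 higher, and 9 to 13 of the related genes were higher and 10 to 16 lower. Mouse Myc ranged from -0.021, without control liver 4, to 0.494. For Myc and the genes named from the related lists 350 repeats kept their direction and side of the threshold, 35 lost the call and 1, that of Myc, changed sign. The nearest profiles were not recomputed under these settings. The causes were not tested. With the replicate number as a block the Sox9 change of -0.32 lost its call (adjusted p = 0.0684), 2 of the 10 genes were higher and 3 lower, and 10 related genes were higher and 12 lower, 3 tight junction proteins among the higher ones. No sign that the numbers pair the samples was seen: deviations of same-numbered samples correlated at -0.057, 0.0048, 0.055 and -0.32 across genes. Of 8 samples, 1 was closest to its own number. With 4 samples in each group, this check cannot exclude a pairing. The Cdh1 minus Cdh2 shift ranged from 2.28 to 2.82 with 1 array left out, and all 4 shifts kept their sign. With the block, sign flips within pairs could not reach 0.05. Array number and levels near 6.16 limit Epcam, Krt19, Dsc2, Krt20, Gjc1 and Elf3.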
